A study of Mus musculus with 13 samples.

Results

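Mitochondrial ribosomal proteins were followed across white and brown adipose tissue of mice that carry a drug-activated stress kinase. The genes are those on the array whose RefSeq accession maps to a symbol made of Mrpl or Mrps and a number, 78 of the 19752 named genes. By that name 49 belong to the large subunit (Mrpl) and 29 to the small subunit (Mrps). In 1 group or more, 77 of them were clearly brighter than background on all arrays and were tested (48 large, 29 small), and Mrpl21 was not. The choice uses the name alone and no measured value.

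Fv2E-PERK joins the kinase domain of PERK, a sensor of endoplasmic reticulum stress, to a domain that the ligand AP20187 brings together, which switches the kinase on. All mice were male C57BL/6J, and the labels give no age. The groups were brown fat (BAT) of Fv2E-PERK mice 12 h after AP20187 at 100 ng/g (2 arrays) or after vehicle (2 arrays), white fat (WAT) of Fv2E-PERK mice 12 h after AP20187 at that dose (3 arrays) or vehicle (2 arrays), and WAT of untreated wild-type mice (3 arrays). Injections were intraperitoneal. The transgene is written mAP::Fv2E-PERK, and the tissue in which its promoter is active is not given in the sources used here. The treatment protocol speaks of muscles, whereas each sample is labelled WAT or BAT. A 13th array, labelled BAT in its title and WAT in its source name, is in no group. There was no injected wild-type group and no wild-type BAT, so the transgene itself can be compared in WAT alone, together with the injection.

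The mitochondrial ribosome translates the few messages of mitochondrial DNA, which encode core subunits of the respiratory chain and ATP synthase. All its proteins are encoded in the nucleus, made in the cytosol and imported, and they assemble on ribosomal RNAs transcribed inside the organelle. Many have bacterial counterparts, while others were gained in the mitochondrial lineage. Brown adipocytes are packed with mitochondria that burn fuel for heat through the uncoupling protein Ucp1, whereas white adipocytes store fat and hold fewer. PERK activation blocks initiation of cytosolic translation through eIF2alpha.

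Start regions of 4 genes the results turn on are printed to show what these promoters look like. RefSeq windows (GRCm38.p6) running from 250 bases before to 50 bases after the start were found for 68 of the 77 tested genes. They were searched on both strands for 5 motifs: NRF1 (GCGCANGCG), the ETS family motif bound by GABPA (CCGGAAG), YY1 (AAGATGGC), ERR (TCAAGGTCA) and the E-box (CACGTG). Capitals mark the matches, in either orientation. Mrpl12 (chr11:120484387-120484686, plus strand) holds an NRF1 match, Mrpl34 (chr8:71464676-71464975, plus strand) an ETS match, Mrps27 (chr13:99344536-99344835, plus strand) an ETS and a YY1 match, and Mrps36 (chr13:100744610-100744909, minus strand) none of the 5.
Mrpl12: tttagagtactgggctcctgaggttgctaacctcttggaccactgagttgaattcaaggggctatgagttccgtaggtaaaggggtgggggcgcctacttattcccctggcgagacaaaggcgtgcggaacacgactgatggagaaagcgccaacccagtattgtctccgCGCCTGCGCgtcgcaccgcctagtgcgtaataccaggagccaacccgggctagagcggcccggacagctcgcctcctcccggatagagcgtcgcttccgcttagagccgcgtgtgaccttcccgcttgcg
Mrpl34: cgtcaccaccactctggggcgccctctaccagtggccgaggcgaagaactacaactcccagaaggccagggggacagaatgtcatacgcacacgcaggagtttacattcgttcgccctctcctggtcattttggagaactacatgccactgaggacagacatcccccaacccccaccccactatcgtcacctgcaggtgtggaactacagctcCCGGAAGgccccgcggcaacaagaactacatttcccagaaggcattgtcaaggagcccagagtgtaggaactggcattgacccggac
Mrps27: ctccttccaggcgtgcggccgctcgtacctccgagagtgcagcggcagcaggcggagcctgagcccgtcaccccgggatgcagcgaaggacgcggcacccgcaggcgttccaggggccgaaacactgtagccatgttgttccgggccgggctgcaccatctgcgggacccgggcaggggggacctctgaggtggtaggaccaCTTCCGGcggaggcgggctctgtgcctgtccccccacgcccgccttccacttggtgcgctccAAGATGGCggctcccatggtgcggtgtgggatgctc
Mrps36: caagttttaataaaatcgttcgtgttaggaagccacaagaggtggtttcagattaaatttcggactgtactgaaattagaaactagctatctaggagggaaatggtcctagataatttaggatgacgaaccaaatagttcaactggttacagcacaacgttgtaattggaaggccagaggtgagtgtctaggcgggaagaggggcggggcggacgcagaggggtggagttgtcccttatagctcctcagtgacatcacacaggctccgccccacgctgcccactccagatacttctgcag

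The ETS motif was in 24 of the 68 windows (35.3%), against 9.12% of the 27025 windows of the RefSeq table, 1 a gene, with chromosome 18 not analysed here. The NRF1 motif was in 16 (23.5%, against 6.47%) and the YY1 motif in 12 (17.6%, against 2.88%). The E-box was in 5 windows (7.35%, against 7.24%), and the ERR motif was in 0 of the 68, against 0.407% of all windows. No match says no more than that these letters are not in the window. Among the 46 windows of genes that were higher in BAT than in WAT (below), 16 held the ETS motif, 12 the NRF1 motif and 3 the YY1 motif (6.52%). Among the 22 windows of genes that did not pass that comparison, 8 held the ETS motif, 4 the NRF1 motif and 9 the YY1 motif (40.9%). These shares are descriptions, with no test.

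The arrays were checked before the genes were compared. Levels are log2 signals from which the log2 value of the array's 75th percentile was taken, so they compare arrays for 1 probe but not probes with each other. That percentile was 6.67 and 7.08 in BAT with vehicle and 6.78 and 6.69 in BAT with AP20187. In WAT it was 8.53 and 8.65 with vehicle, 8.14, 7.88 and 8.07 with AP20187, and 8.10, 8.25 and 8.19 in wild type. A higher level is thus higher relative to the rest of the array. The part that these differences in brightness play in the changes below was not tested. Ucp1 stood at 9.87 to 10.63 on the 4 BAT arrays and at -7.23 to -3.41 on the 8 WAT arrays, where it was well above background on 1 AP20187 array alone. Lep, the white fat hormone leptin, stood at -0.43 to 1.68 in BAT and at 3.21 to 5.19 in WAT. All 10 skeletal muscle markers were measured, and their mean level was 4.55 and 3.64 on the BAT AP20187 arrays, 1.08 and 5.36 on the BAT vehicle arrays and -3.55 to -0.80 on the WAT arrays. Areas of weak signal covered 9.04%, 8.79% and 1.89% of spots on WAT AP20187 arrays 1, 2 and 3, and 0% on the others. WAT AP20187 array 1 carried transcripts of the epididymis, the organ next to the epididymal fat pad, with a mean list level of 6.53 against -0.54 and -4.04 on AP20187 arrays 2 and 3. Those means are over the 6 of 17 epididymis markers that were bright enough to be tested. Of the 77 genes, 70 were well above background on all 12 arrays, and 0 were saturated on any.

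**Figure D1:**
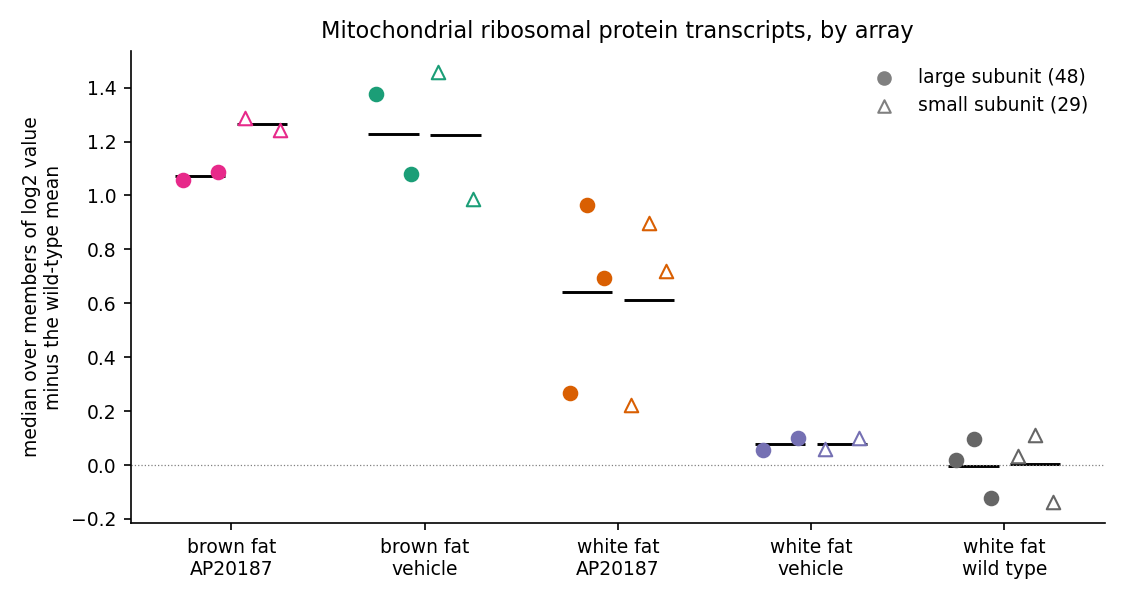
Median over the genes of the log2 level minus that gene's wild-type mean, for each array, with the large subunit (48 genes, filled circles) and the small subunit (29, open triangles). Black lines are group means. The 4 BAT arrays lie between 0.99 and 1.46, WAT AP20187 arrays between 0.22 and 0.97 and WAT vehicle arrays between 0.06 and 0.10.

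Transcripts of the mitochondrial ribosome were higher in BAT than in WAT of vehicle-treated Fv2E-PERK mice. Of the 77 genes, 53 rose (68.8%) by limma at an adjusted p under 0.05, against 14.3% of all 24459 features, and 0 fell, against 9.17%. The median change was 1.14 on the log2 scale, or 2.21-fold, while the median over all features was 0.11. The quartiles of the genes were 0.80 and 1.48. The estimate was positive for 76 of the 77, against 54.9% of all features, and both BAT arrays stood above both WAT arrays in 75, against 39% of all features. Changes of at least 2-fold were found for 48 genes, 42 of them past the threshold. The share of all features with such a change is not given, and their upper quartile was 0.645.

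**Figure D2:**
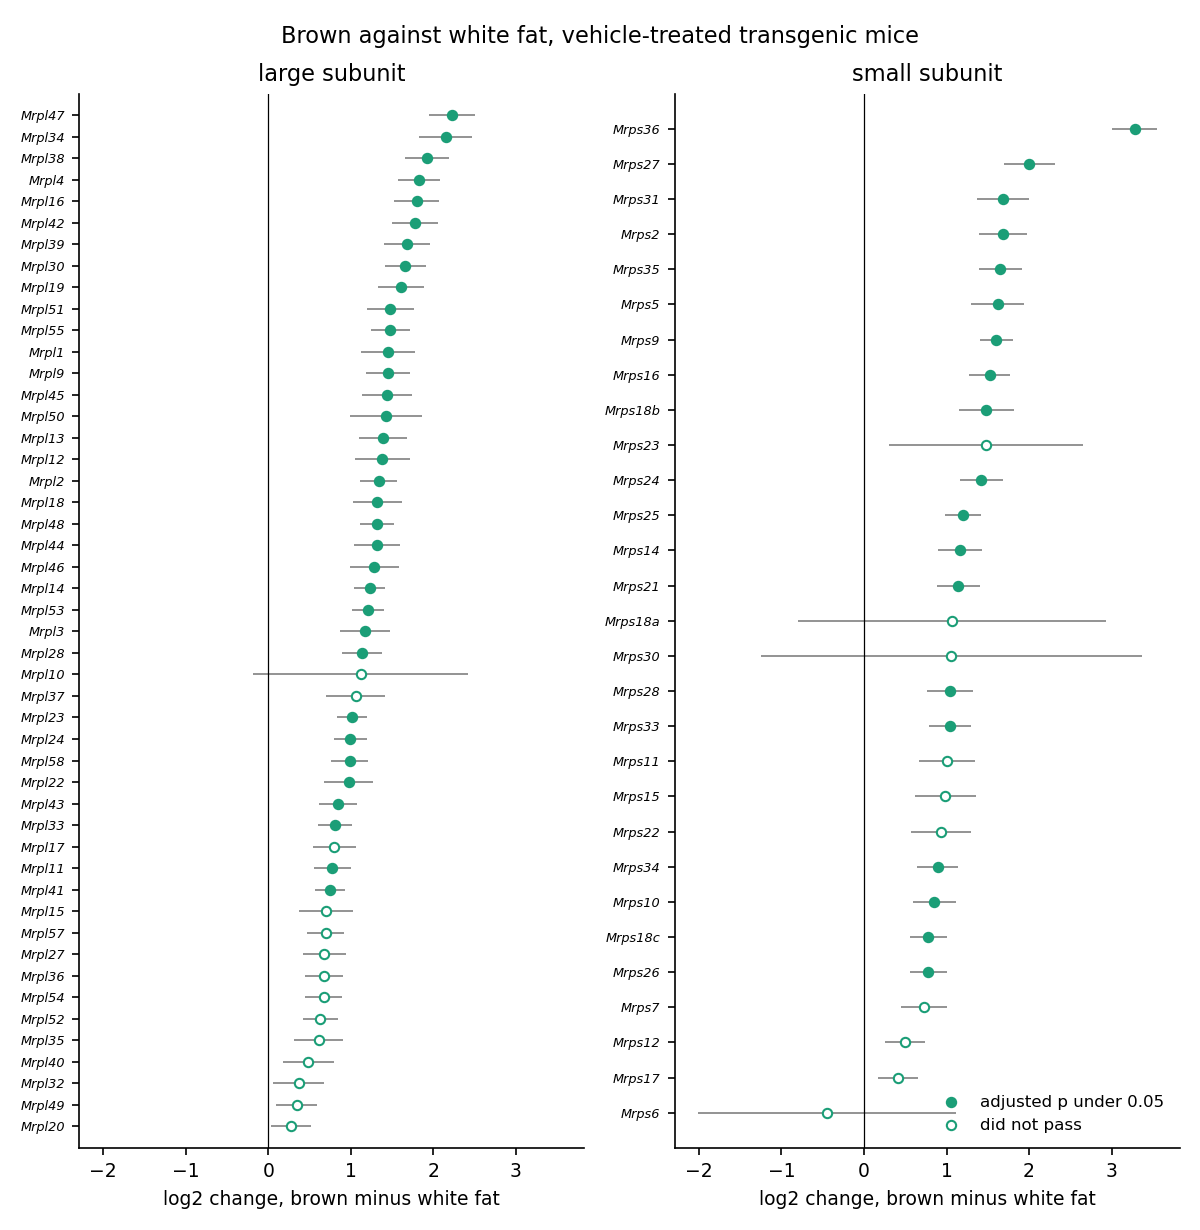
Log2 change, BAT minus WAT in vehicle-treated Fv2E-PERK mice (2 arrays each), for each gene of the large subunit (left) and of the small subunit (right), with the standard error of the limma fit. Filled points passed an adjusted p of 0.05. Mrps36 lies farthest right, at 3.28, followed by Mrpl47 at 2.22, and Mrps6 alone lies left of 0.

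Both subunits were represented. Of the large subunit, 34 of 48 rose, with a median of 1.19, and of the small subunit 19 of 29 rose, with a median of 1.07. The difference of the medians, 0.12, compares with a spread between replicates of 0.08 (SD), which was taken over the large minus small median of each array. That per-array value averaged 0.17 in BAT with vehicle and 0.09 in WAT with vehicle. With Mrps30 and Mrps18a placed in the large subunit and Mrps36 left out, the 2 medians were 1.15 and 1.09. Among genes with bacterial counterparts, 21 of 29 of the large and 10 of 16 of the small subunit rose. Among mitochondrial additions, 13 of 21 of the large subunit rose, a class that holds Mrps30 and Mrps18a by their place in the structure, and 8 of 10 of the small subunit.

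Mrps36 had the largest rise. It was at 7.35 and 6.92 on the BAT vehicle arrays, against 3.78 and 3.94 on the WAT vehicle arrays, and the BAT AP20187 arrays gave 7.23 and 7.12. All 4 BAT arrays thus stood above all 8 WAT arrays, the highest of which was at 4.53. The change was 3.28 ± 0.27 (SE), or 9.70-fold (limma adjusted p = 2.05e-04). A second Mrps36 probe changed by 2.62. The protein was first named as a ribosomal one and was later assigned to the oxoglutarate dehydrogenase complex of the citric acid cycle, as a subunit that holds it together, so its symbol and its place differ.

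Mrpl47, Mrpl34 and Mrpl38 led the large subunit. Mrpl47, a protein with a bacterial counterpart, was at 4.93 and 4.58 on the BAT vehicle arrays, against 2.60 and 2.47 in WAT with vehicle. Its change of 2.22 ± 0.28 (4.67-fold, limma adjusted p = 0.00111) was matched by 2.06 at its second probe. Mrpl34, also of bacterial descent, was at 6.24 and 5.68 in BAT, against 3.79 and 3.83 in WAT, a change of 2.15 ± 0.32 (4.43-fold, limma adjusted p = 0.00211). Its values in the 2 tissues lay well apart. Mrpl38, a mitochondrial addition of the central protuberance, was at 3.96 and 3.46 in BAT, against 1.98 and 1.60 in WAT (3.78-fold, limma adjusted p = 0.00163).

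After Mrps36, Mrps27 and Mrps31 led the small subunit. Mrps27, a pentatricopeptide repeat protein that binds RNA, was at 2.70 and 2.03 on the BAT vehicle arrays, against 0.59 and 0.13 in WAT, a 4.01-fold rise (limma adjusted p = 0.00241). It was the gene whose promoter above holds both an ETS and a YY1 match. Mrps31, an addition of the mitochondrial ribosome, was at 4.90 and 4.58 in BAT, against 3.05 and 3.06 in WAT (3.23-fold, limma adjusted p = 0.00603). The groups did not overlap for either.

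**Figure D3:**
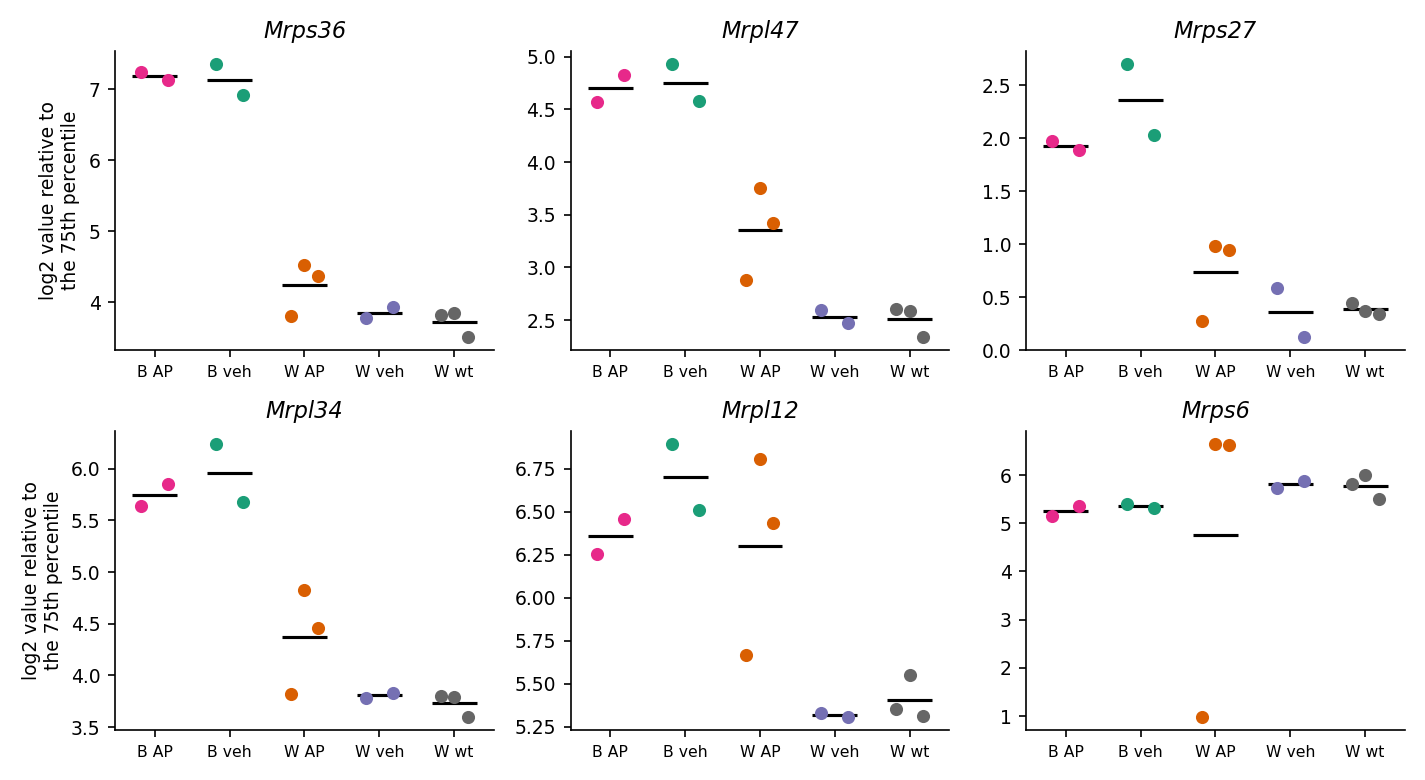
Log2 level relative to the 75th percentile of the array, on each array, of 6 genes (B, BAT; W, WAT; AP, AP20187; veh, vehicle; wt, wild type); black lines are group means. Mrps36, Mrpl47, Mrps27 and Mrpl34 are higher in all BAT than in all WAT arrays, while Mrps6 is lower in BAT than on all WAT arrays but AP20187 array 1 (0.99).

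Mrpl12, which forms the flexible stalk and has been reported to bind the mitochondrial RNA polymerase, was at 6.89 and 6.51 in BAT, against 5.33 and 5.31 in WAT, and rose 2.61-fold (limma adjusted p = 0.0178). Mrpl11, of the stalk base, rose 1.71-fold, a call lost under 13 of 28 alternatives (adjusted p up to 0.393). Mrpl10, which anchors Mrpl12, was at 4.07 and 3.81 in BAT, against 2.83 and 2.82 in WAT, and did not pass (2.17-fold, adjusted p = 0.59). Its standard error of 1.30 came with 1 array outside these 2 groups, WAT AP20187 array 3, where its spot lay in a weak area, and without such spots its adjusted p was 0.0108. Mrps12, at the decoding centre, changed by 0.50 ± 0.24 and did not pass.

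Mrpl45, which ties the ribosome to the inner membrane, rose 2.71-fold, and Mrpl44, a protein with an RNase III fold, rose 2.49-fold. The Mrpl44 value rests on 1 WAT vehicle array because the other spot was dropped as an outlier. Mrpl58, a peptidyl-tRNA hydrolase that frees stalled ribosomes, rose 1.98-fold. The 3 Mrps18 paralogues differed in whether they passed. Mrps18b rose 2.80-fold and Mrps18c 1.72-fold. Mrps18a, which sits in the large subunit despite its name, changed 2.09-fold with an adjusted p of 0.733, and Mrps30, also in the large subunit, changed 2.08-fold with an adjusted p of 0.789. Both had a weak-area spot on 1 WAT AP20187 array, and without such spots their adjusted p was 0.0228 and 0.0271. Mrps34, mutated in some human mitochondrial diseases, rose 1.85-fold, while Mrps22, another such disease gene, was 1.91-fold higher and did not pass (adjusted p = 0.0928). The calls of Mrps18c and Mrps34 were each lost under 9 of 28 alternatives.

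Mrps6 was the gene with a negative estimate, a choice made once the values were known. It was at 5.40 and 5.31 on the BAT vehicle arrays and 5.16 and 5.36 on the BAT AP20187 arrays, against 5.74 and 5.87 in WAT with vehicle and 5.81, 6.00 and 5.51 in wild-type WAT. All 4 BAT values lay below these 5 WAT values. The change of -0.45 ± 1.56 did not pass (limma adjusted p = 0.876), nor did it with weak-area spots left out (-0.45 ± 0.20, adjusted p = 0.135). Mrpl20 was at 7.07 and 6.56 in BAT, against 6.37 and 6.70 in WAT, and these overlapped. Its estimate of 0.28 turned to -0.53 with normexp background correction and quantile scaling, where it passed as lower (adjusted p = 0.0423).

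Of the 20 genes with 2 probes, 18 had the same sign at both in BAT against WAT. The exceptions were Mrpl49 (0.34 at the probe used and -0.08 at the other) and Mrps14 (1.16 and -0.23). Mrps25 (1.20 and 0.12) and Mrpl41 (0.75 and 0.02) agreed in sign but not in size, and the values reported for these 4 are those of the brighter probe. The count of 53 was sensitive to single arrays. Leaving out BAT vehicle array 2 gave 25, and leaving out WAT vehicle array 1 or 2 gave 27 or 35, while the median of the genes minus that of all features stayed between 0.89 and 1.19 with each array left out. With weak-area spots left out, 65 genes rose, against 17.2% of all features, and these included all 53. With the 13th array counted as BAT with vehicle, 0 of the 77 and 0 of all features passed, and the median change was 0.75. On that array Ucp1 was at -4.57 and Lep at 4.00, both within the range of the WAT arrays. The counts of lost calls given for single genes include this setting. All BAT arrays share a slide that holds no WAT array, so tissue and slide cannot be told apart. In whole tissue, fewer cells of a type and less RNA per cell cannot be told apart either, and the part that muscle transcripts in the BAT samples play in these values was not tested.

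Other parts of the mitochondrial gene expression machinery were also higher in BAT. All 5 subunits that carry other names rose in BAT, against 14.3% of all features, with a median of 1.22. They were Chchd1 (2.62-fold), Ptcd3 (2.54-fold), Gadd45gip1 (2.33-fold), Aurkaip1 (1.91-fold, with an estimate of -0.03 under normexp and quantile scaling) and the GTP-binding Dap3 (1.72-fold). The Dap3 call was lost under 15 of 28 alternatives (adjusted p up to 0.45). Of 16 translation factors, 11 rose (68.8%) and 0 fell, against 14.3% and 9.17% of all features, with a median of 1.21. Taco1, an activator of cytochrome oxidase subunit synthesis, rose 5.33-fold, Guf1, an elongation factor, 4.67-fold, Lrpprc, which stabilises mitochondrial messages, 4.04-fold, and Gfm1, the translocase, 3.78-fold. Of 21 assembly and ribosomal RNA factors 12 rose (57.1%), led by the methyltransferases Trmt2b (5.49-fold) and Mrm3 (2.69-fold).

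Of 9 genes for transcription and copying of mitochondrial DNA, 4 rose (44.4%), against 14.3% of all features. Among them were Mgme1 (3.32-fold), Tfb2m (3.23-fold) and the RNA polymerase Polrmt (2.26-fold). Twnk, the helicase, was 2.49-fold higher and did not pass. Of 10 regulators of mitochondrial biogenesis 5 rose, with the coactivator Ppargc1b (21.0-fold), the nuclear receptors Esrrg (13.7-fold) and Esrra (4.40-fold), and the coactivator Ppargc1a (4.15-fold) among them. The respiratory chain, whose mitochondrial subunits the ribosome makes, had 84 of 91 nuclear genes raised (92.3%) and a median of 2.14. The median for the ribosome (1.14) lay below it, and its upper quartile (1.48) was below the lower quartile of the respiratory chain (1.79). Of 80 cytosolic ribosomal protein genes, 18 rose (22.5%, against 14.3% of all features), with a median of 0.39.

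**Figure D4:**
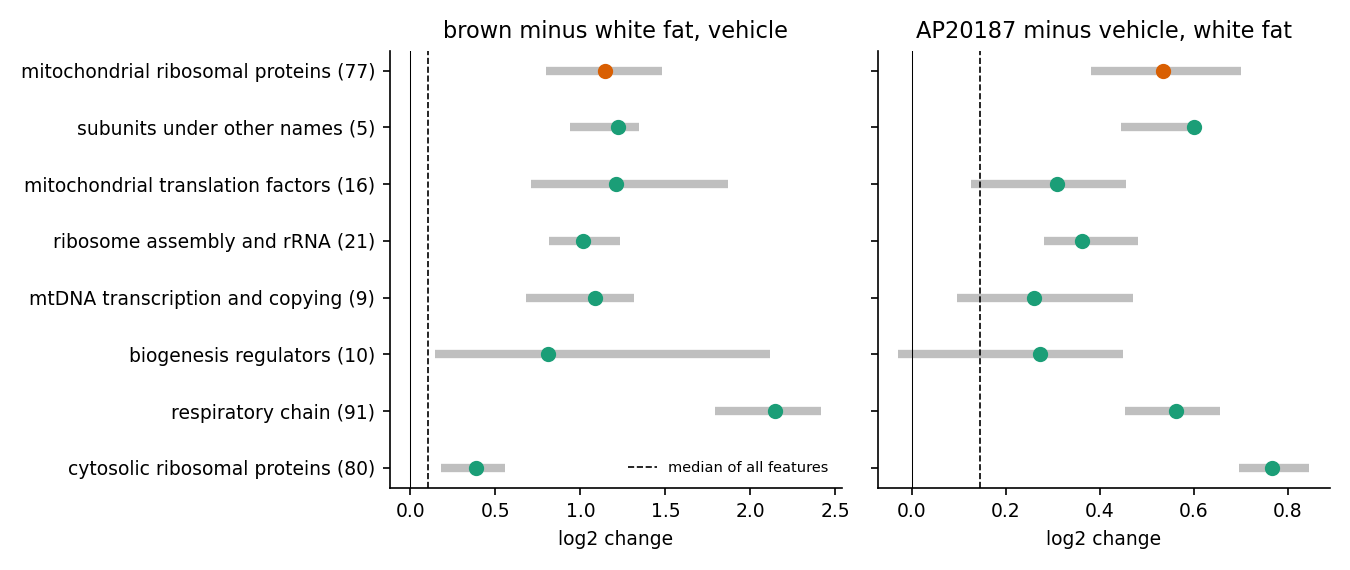
Median log2 change (points) and interquartile range (bars) of 8 gene lists, for BAT minus WAT with vehicle (left) and for AP20187 minus vehicle in WAT (right); numbers in brackets are genes tested. The ribosome (top row) lies at 1.14 and 0.53, the respiratory chain at 2.14 and 0.56 and cytosolic ribosomal proteins at 0.39 and 0.77.

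In WAT, AP20187 came with higher estimates for most genes of the mitochondrial ribosome, of which none passed the test. Of 77 genes, 0 passed by limma, against 2.24% of all features, and 39 had an unadjusted p under 0.05, against 22.3%. The median change was 0.53 (1.45-fold), against 0.15 over all features, and 72 estimates were positive, against 58.8%. All AP20187 arrays stood above both vehicle arrays in 46 genes, against 26.2% of all features. The large subunit had a median of 0.58 and the small subunit 0.50. The respiratory chain had 0 of 91 genes past the threshold and a median of 0.56.

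The 3 AP20187 arrays did not give the same level. The median over the genes, minus the wild-type mean, was 0.25, 0.94 and 0.70 on AP20187 arrays 1, 2 and 3, against 0.06 and 0.10 on vehicle arrays 1 and 2. Array 1 thus lay nearer to the vehicle arrays than to the other 2. In 67 genes both other AP20187 arrays stood above it, a count for which the share of all features is not given. Those 2 arrays stood above both vehicle arrays in 74 genes, against 44.5% of all features. Array 1 is the one with epididymal transcripts, and it also had the lowest mean level of endothelial markers (-0.40, against 2.15 to 2.69 on the other 11 arrays). Adipocyte markers averaged 6.80, 8.51 and 8.07 on AP20187 arrays 1, 2 and 3, against 7.62 and 7.56 with vehicle, so they were highest on the 2 arrays where the ribosomal genes were highest in WAT. The part of these markers in the levels was not tested. Without array 1, 30 genes rose (18 large, 12 small), against 7.65% of all features, and the median was 0.73, against 0.20. This was the highest count, which ran from 0 to 30 as each array of the fit was left out in turn.

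**Figure D5:**
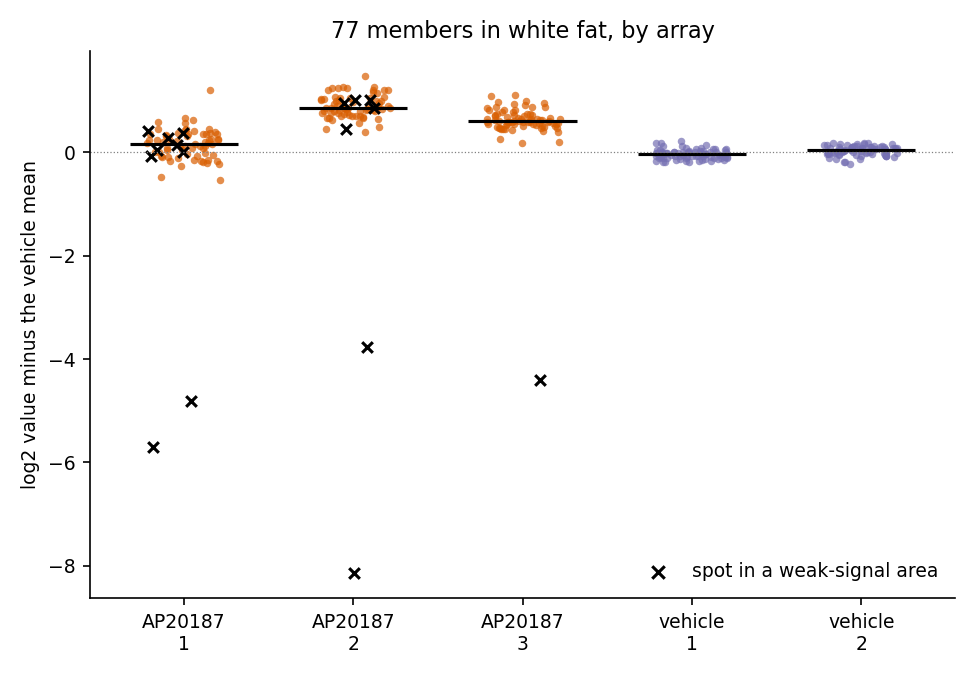
Log2 level minus the mean of both vehicle arrays, for each gene on the 3 AP20187 and 2 vehicle arrays of WAT; black lines are medians and crosses are spots in areas of weak signal. The bulk of the genes lies near 0 on AP20187 array 1 and above 0 on arrays 2 and 3, and the 5 lowest points are weak-area spots.

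The 3 highest estimates of the large subunit belonged to Mrpl12, Mrpl20 and Mrpl53, and those of the small subunit to Mrps10, Mrps18b and Mrps7. Mrpl12 was at 5.67, 6.81 and 6.44 on the AP20187 arrays, against 5.33 and 5.31 with vehicle, a change of 0.98 ± 0.30 (1.98-fold, limma adjusted p = 0.111). On arrays 2 and 3 it was within the range of BAT (6.26 to 6.89). Mrps10 was at 4.18, 4.86 and 4.55, against 3.49 and 3.70 with vehicle (0.93 ± 0.24, limma adjusted p = 0.0712). Every AP20187 array stood above every vehicle array for both. Mrpl53 was at 6.03 and 5.75 on AP20187 arrays 2 and 3, against 4.92 and 5.03 with vehicle (0.92 ± 0.19, limma adjusted p = 0.0523), and its spots on array 1 were dropped as outliers. Mrpl20, also measured on arrays 2 and 3 alone, was at 7.58 and 7.35, against 6.37 and 6.70 with vehicle. From the authors' value table the estimates turned to -0.19 for Mrpl53 (limma adjusted p = 0.908) and -1.16 for Mrpl20 (limma adjusted p = 0.686), against 0.93 for Mrpl20 here.

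Mrps18b was at 5.01, 5.91 and 5.74 on the AP20187 arrays, against 4.57 and 4.72 with vehicle (0.91 ± 0.31, limma adjusted p = 0.135). Mrps7, which lines the exit path of transfer RNA, was at 5.55, 6.40 and 6.12, against 5.05 and 5.23 (0.88 ± 0.25, limma adjusted p = 0.096), while its other probe changed by 0.19. Of the 20 genes with 2 probes, 18 had the same sign at both in this comparison. The exceptions were Mrpl41 (0.65 at the probe used and -0.44 at the other) and Mrps23 (-0.98 and 0.94). The smallest adjusted p belonged to Mrpl52, a choice made after its values were seen. It was at 6.12, 5.75 and 5.54 with AP20187, against 4.79 and 5.05 with vehicle (0.88 ± 0.19, limma adjusted p = 0.0521). In contrast to most genes it was highest on array 1.

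The lowest estimates came with spots in weak areas. Mrps30 was at 3.23, -4.77 and 3.93 on the AP20187 arrays, against 3.42 and 3.34 with vehicle, an estimate of -2.58 ± 2.11. Mrps18a was at -1.92, 4.98 and 4.60, against 3.84 and 3.72 with vehicle (-1.23 ± 1.70). For both, the single low value is the spot in a weak area. Without such spots, and with the 75th percentile taken over the rest, the estimates were 0.11 for Mrps30 and 0.87 for Mrps18a. The same held for Mrpl10 (-1.31, against 0.07 without them), Mrps6 (-1.05, against 0.69) and Mrps23 (-0.98, against 0.32). In all, 20 values of 17 genes lay in weak areas; leaving these areas out gave a median of 0.44, against 0.06 over all features, with 0 genes past the threshold. Mrpl35 (0.01 ± 0.27) and Mrpl49 (0.21 ± 0.23) were the lowest estimates of the large subunit with no such spot.

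Values of the remaining functional members in WAT ran in the same range. Mrpl11 changed by 0.52 ± 0.21, Mrps12 by 0.76 ± 0.24 without a value on AP20187 array 1, and Mrpl45 by 0.57 ± 0.28. Mrpl58 changed by 0.70 ± 0.21, Mrps34 by 0.83 ± 0.22 and Mrps22 by 0.73 ± 0.33. Mrpl44, with 2 AP20187 values and 1 vehicle value, changed by 0.33 ± 0.27, and Mrps36, the largest rise of BAT, by 0.38 ± 0.25. None of these passed. Among the subunits with other names Gadd45gip1 had the largest estimate, at 0.87 ± 0.21 (limma adjusted p = 0.0632), and Dap3 the smallest, at 0.27 ± 0.22.

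Of the other lists in WAT, 0 of 16 translation factors, 0 of 21 assembly factors, 0 of 9 genes of mitochondrial DNA transcription and 0 of 10 regulators passed, with medians of 0.31, 0.36, 0.26 and 0.27. The largest changes in the first 3 of these lists were negative, at -1.91 for Mtrf1, -1.68 for Gtpbp10 and -1.41 for Twnk. Each of these genes was well above background on 2 of the 3 AP20187 arrays. Over the alternatives their estimates changed sign. They ran from -3.21 to 0.62 for Mtrf1, from -2.78 to 0.54 for Gtpbp10 and from -4.77 to 0.28 for Twnk. Positive estimates were found for 13 of the 16, 18 of the 21 and 7 of the 9 genes. Oxa1l, the inner membrane insertase for newly made proteins, changed by 0.77 ± 0.21 and Slirp, the partner of Lrpprc, by 0.74 ± 0.19. Esrra changed by 1.02 ± 0.28 (limma adjusted p = 0.0845). Cytosolic ribosomal proteins had a larger median, 0.77, with 28 of 80 past the threshold (35%), against 2.24% of all features. Without weak-area spots their median was 0.63, against 0.06 over all features, with 0 of 80 past it. The vehicle array on the same slide as the AP20187 arrays was compared alone as well. Within that slide the median difference was 0.52 over 76 genes, 71 of them positive, with no value over all features beside it.

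In BAT, AP20187 left 0 of the 77 genes past the threshold, against 0.00818% of all features. The median change was -0.07, against -0.04 over all features, and 27 estimates were positive, against 45.5%. The large subunit had a median of -0.09 and the small subunit -0.01, a difference of -0.08 that did not exceed the spread between replicates. None of the 77 had an unadjusted p under 0.05, against 7.37% of all features. The vehicle arrays themselves differed more than this: the median over the genes, minus the wild-type mean, was 1.11 and 1.13 on the AP20187 arrays, against 1.42 and 1.07 on the vehicle arrays.

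Mrpl18, a protein of the central protuberance, had the lowest estimate in BAT. It was at 4.64 and 4.26 with AP20187, against 5.12 and 4.91 with vehicle (-0.56 ± 0.30, limma adjusted p = 0.757). Mrps27 was at 1.97 and 1.89, against 2.70 and 2.03 with vehicle (-0.43 ± 0.31). Both AP20187 arrays stood below both vehicle arrays for each, as in 15 of the 77 genes, against 21.6% of all features. The highest estimate, of Mrps18a, was 0.42 ± 1.86, with 5.28 and 5.24 under AP20187, against 5.29 and 4.40 under vehicle, which overlap. Mrpl32 changed by 0.26 ± 0.31 and Mrps10 by 0.25 ± 0.26.

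The response to AP20187 was then compared between tissues. For 0 of 77 genes did the difference, BAT minus WAT, pass by limma, against 0% of all features. An unadjusted p under 0.05 was found for 18, against 16.5%. The median of the difference was -0.60, against -0.16 over all features. The lowest values were those of Mrpl12 (-1.33 ± 0.45, adjusted p = 0.198), Mrpl53 (-1.33 ± 0.27, adjusted p = 0.131) and Mrpl18 (-1.25 ± 0.40, adjusted p = 0.184). In 9 genes every WAT array with AP20187 stood above both vehicle arrays while both BAT arrays with AP20187 stood below theirs, against 7.04% of all features. These were Mrpl11, Mrpl12, Mrpl14, Mrpl18, Mrpl41, Mrpl48, Mrpl52, Mrpl53 and Mrps25. Without WAT AP20187 array 1, 2 genes passed, Mrpl12 (-1.65, adjusted p = 0.0449) and Mrpl53 (-1.33, adjusted p = 0.0498).

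Vehicle-treated Fv2E-PERK WAT was set against untreated wild-type WAT to see the genes without the drug. Of the 77 genes, 0 passed by limma, against 0.0245% of all features, and 0 had an unadjusted p under 0.05, against 5.02%. The median change was 0.07, against 0.02 over all features. Estimates ran from -0.17 to 0.32, with Mrps10 (-0.17 ± 0.24) and Mrpl2 (-0.17 ± 0.21) lowest and Mrps21 (0.32 ± 0.24) and Mrpl40 (0.32 ± 0.28) highest. Mrps21 was at 5.59 and 5.82 with vehicle, against 5.39, 5.49 and 5.28 in wild type, and these did not overlap. Mrpl40 was at 3.66 and 4.03, against 3.57, 3.69 and 3.34, which overlap. Within slide 1 the median of vehicle array 1 minus the 3 wild-type arrays was 0.06.

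Across all 5 groups, the highest mean lay in BAT with vehicle for 44 of the 77 genes and in BAT with AP20187 for 26. It was in WAT with AP20187 for 6 genes and in WAT with vehicle for 1. The lowest mean was in wild-type WAT for 54 genes, in WAT with vehicle for 18 and in WAT with AP20187 for 5. Every BAT array stood above every WAT array in 36 genes, 22 of them of the large subunit, against 14% of all features.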

How the data were processed

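Each sample was read on an Agilent array in a single colour (Cy3); the design is 028005, on mm9, per the file headers. Per those headers, the intensity deposited for each spot is the signal left after Agilent Feature Extraction 10.7.1.1 removed background and trends inside an array; arrays were not scaled to each other. The value table of the authors holds intensity too and equalled that signal within 0.1% for 99.0 to 99.2% of its values. Outlier spots were dropped, which left 948 missing values (7 of them among the 77 genes), and spots of a probe were averaged. Values are log2 of that mean minus the array's 75th percentile. Probes were kept if well above background on all arrays of 1 group, and the probe with the highest mean signal stood for a gene. Symbols came from RefSeq (GRCm38.p6) by accession: of 55681 probes, 26056 matched 1 gene and the others none.

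A single limma fit (version 3.58.1, R 4.3.3, lmFit and eBayes) took in the 5 groups of 12 arrays. P-values were adjusted by Benjamini and Hochberg's method over 24459 features, with a threshold of 0.05. The median of all features is given beside the median of the genes in each comparison of groups, since the choice of percentile moves both. It is not given for differences within a slide. Separate animals are not stated for the arrays of a group, in which case a p-value reflects no more than how these arrays vary, and their small number limits the precision. Weak areas were windows of 6 rows and 2 columns either side of a spot in which at least 15% of bright spots lay more than 2 log2 units under other arrays of the tissue. The fit was tested on simulated data. The alternatives were other scalings, filters, probe choices, slide and replicate blocks, placements of the 13th array and left-out arrays; the omission of weak areas and averaging on the log2 scale were added after seeing the data. Replicate numbers did not pair arrays: deviations of same-numbered arrays correlated between -0.23 and 0.11.

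The genes and lists were chosen with earlier results of these data known. The rule for naming genes took the 3 largest rises and 3 largest falls of each subunit past the threshold. Where fewer than 3 genes passed, it took the 3 highest and 3 lowest estimates. It added members of known function listed beforehand and up to 4 genes with the largest change in each other list. Not all genes it picked are named, above all in the comparisons with AP20187. Genes named for disagreeing probes or for opposite responses fall outside it, as does Mrpl20 in BAT against WAT. Other exceptions are marked.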

Additional observations from a re-analysis of the deposited data

Results flagged for a closer look

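In 9 genes, every WAT array with AP20187 that gave a value stood above both vehicle arrays while both BAT arrays with AP20187 stood below both of theirs, a pattern held by 7.04% of all features. The difference of the responses, BAT minus WAT, was -1.33 for Mrpl12, -1.33 for Mrpl53, -1.25 for Mrpl18, -1.05 for Mrpl52, -0.97 for Mrpl48, -0.86 for Mrpl41, -0.72 for Mrpl11, -0.72 for Mrpl14 and -0.61 for Mrps25 on the log2 scale. None passed the limma test of that difference (adjusted p = 0.198, 0.131, 0.184, 0.146, 0.152, 0.152, 0.286, 0.206 and 0.35). Mrpl41 and Mrps25 have a second probe, at which the AP20187 change in WAT was -0.44 and 0.04, against 0.65 and 0.50 at the probe used. In BAT alone, the AP20187 arrays stood below the vehicle arrays in 15 of the 77 genes, against 21.6% of all features, and none of the 77 had an unadjusted p under 0.05 by limma, so the direction in BAT is not shown. Over the alternatives the adjusted p of the difference ran from 0.0449 to 0.655 for Mrpl12, from 0.0476 to 0.95 for Mrpl53 and from 0.0637 to 0.666 for Mrpl18. No group had 4 arrays, so single arrays were not tested as outliers.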

How the results depend on the processing

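The median of the genes minus that of all features stayed within the spread between replicates (0.29, SD) under all alternatives in WAT with AP20187 (0.21 to 0.53) and in WAT with vehicle against wild type. In BAT against WAT it did so except with the 13th array counted as BAT with vehicle (0.68), a setting that also gave 0 calls there, 0.28 for AP20187 in BAT and -0.074 for the difference of responses. Ucp1 and Lep were within their WAT ranges on that array. The count of 53 in BAT against WAT was otherwise 39 to 69, and 25 to 67 with each array left out. The replicate block gave 47 there and 0 in the other comparisons. Whether replicate numbers pair BAT with WAT arrays was not tested. A fixed slide block cannot give BAT against WAT. In WAT with AP20187 the count of genes was 10 with no filter on dim probes, 6 with a stricter one, 8 with a trended prior, 5 with slide as a random block and 15 with the 13th array as WAT with vehicle. It was 0 to 30 with each array left out. Without AP20187 arrays 1 and 2 it was 1, Mrpl10, which fell by 4.41 on its weak-area spot and also passed for the difference of responses. That difference otherwise gave 1 call with a trended prior, Mrpl53, and 0 to 2 with each array left out, with a median of the genes minus that of all features of -0.62 to -0.26. The large minus small difference moved to 0.18 with the mean of a gene's probes and -0.021 without arrays 1 and 2 in WAT with AP20187 (-0.035 to 0.12 with each array left out), 0.014 in BAT with AP20187 with subunits assigned by place, 0.024 without arrays 1 and 2 for the difference of responses, and 0.024 with the stricter filter in BAT against WAT (-0.02 to 0.12 with each array left out). Normexp with quantile scaling turned Mrpl20 (-0.53) and Aurkaip1 (-0.029) in BAT against WAT, and leaving out AP20187 array 1 turned Mrps6 in WAT (-1.99 to 0.83 with each array left out). Over all values of named genes, 4685 recomputations kept the call (or, with no call, stayed within the spread of replicates). Of the others, 116 lost the call, 86 gained one and 254 moved by more than that spread. A further 3 turned as above, with a call before or after the change. A change of sign with no call was counted as kept or moved, as for Mrps30 in WAT with AP20187 (-4.15 to 0.55). From the authors' value table Mrpl20 (-1.16) and Mrpl53 (-0.19) changed sign in WAT with AP20187, with no call. With the percentile taken over probes that all arrays detected, 2682 features rose and 3395 fell in BAT against WAT, against 3491 and 2243, and 7 rose and 220 fell in WAT with AP20187, against 428 and 120; 53 and 0 of the 77 genes passed in these. The cause of these movements was not tested.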

Other observations

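The 13th array, whose labels contradict each other, gave a median of 3.86 over the 77 genes, against 4.91 to 5.29 on the 4 BAT arrays and 3.60 to 4.80 on the 8 WAT arrays. Mrps36 was at 3.86 on it. Ucp1 was at -4.57 and Lep at 4.00. It was placed in no group on these values.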
